A study of Mus musculus with 69 samples.

Results

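The genes described here are imprinted genes, which are expressed mainly from the copy inherited from one parent. They were chosen by name, as 40 genes of a fixed list, and 39 of them had a row among the 15924 genes of the deposited RNA-seq tables. Rasgrf1 was in none of the tables, Snrpn and Ascl2 were not in the table of replated cultures, and 37 members were in all 3 tables. By the copy that is generally described as expressed in mouse, 17 of the 40 are maternal, 22 are paternal and Gnas differs by isoform. They fall into 10 clusters of at least 2 members and 9 single genes. The deposited values are totals per gene, so they do not tell the parental copies apart, and the parental copy is used here only as a way of grouping genes.

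An imprinted cluster is governed by a control region that carries DNA methylation on 1 parental copy, set in the germ line and kept in the embryo by factors such as the zinc finger protein ZFP57 with its partner TRIM28. Several clusters make a long noncoding RNA from the unmethylated copy, such as Kcnq1ot1 or Airn, which silences neighbouring genes on that copy, in part through Polycomb repressive complex 2 and its mark on histone H3, H3K27me3. Many imprinted genes control fetal and placental growth, and several are known for high levels in mesodermal and extraembryonic tissues.

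All cultures came from CJ7, a mouse embryonic stem (ES) cell line kept on a feeder layer in serum with LIF, a cytokine that sustains ES cells, and were differentiated as hanging-drop embryoid bodies for 4 or 8 days. In the first experiment (12 libraries, 2 per group) cultures of ES cells, day 4 and day 8 received the solvent DMSO or 4 µM GSK343, an inhibitor of EZH2, the catalytic subunit of Polycomb repressive complex 2, from 3 days before differentiation to the end. The second (18 libraries, 3 per group) compared wild-type with EZH2-mutant cultures at the same 3 stages, and the labels used here do not give the allele or whether the mutant is a single clone. In the third (11 libraries) embryoid bodies were replated in ES cell medium for 5 days, up to day 14, after DMSO or GSK343 during embryoid body culture and then DMSO or GSK343 after replating, with 3 libraries in each group except GSK343 then GSK343, which had 2. The labels do not say that libraries of a group came from separate cultures, so p-values measure the spread between these libraries. Since whole cultures were measured, a lower share of expressing cells and less RNA per cell cannot be told apart.

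Depth, as reads recovered from the RPKM steps, was 5.01 to 22 M (mega) reads per library in the first experiment, 7.17 to 28.5 M in the second and 2.27 to 8.34 M in the third. Ezh2 followed the labels, at 37.2 to 62.5 RPKM in wild-type and 18.3 to 26.5 RPKM in mutant libraries over the 3 stages, where RPKM is the read count per kilobase of gene, scaled to library size. The Y-linked genes also separated the genotypes at every stage, with Eif2s3y at 32.3 to 78.8 RPKM in wild-type and 0 to 2.01 in mutant libraries, Ddx3y at 9.66 to 30.5 and 0 to 2.0, and Uty at 6.46 to 19.7 and 0 to 0.408, and their part in the members' values was not tested. The ribosomal gene Rn45s took 6.38% to 11.5%, 4.08% to 57.9% and 8.66% to 34.0% of reads in the 3 experiments, and was at 18.3% or more in every second library of the wild-type and mutant experiment and at 13.4% or less in its other libraries. At day 8, wild-type library 3 lay with the mutant libraries 2 and 3, and mutant library 1 lay with wild-type libraries 1 and 2, for Igf2, H19, Dlk1, Peg3, Peg10, Mest and Airn.

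Of the 39 members with values, 30 had a promoter sequence in the RefSeq table (mouse build GRCm38.p6, which is mm10), and the other 9 were Rtl1, Nespas, Impact, Peg13, Sgce, Dcn, H19, Peg10 and Cdkn1c. The 250 bases upstream of the start are shown for the 6 members whose day 8 difference between GSK343 and DMSO had the smallest p-values: the growth factor gene Igf2, the growth-restraining gene Phlda2, Dlk1, the zinc finger genes Peg3 and Zim1, and the noncoding RNA Airn. For Igf2, which has several starts, the start with the most CpG is shown. Capitals mark 2 motifs, each searched on both strands. The first is TGCCGC, which reads as GCGGCA on the other strand and is the hexamer that ZFP57 recognises when methylated. The second is TATAAA, which reads as TTTATA on the other strand and is the core of the TATA box.
Igf2, chr7:142658805-142659054, minus strand: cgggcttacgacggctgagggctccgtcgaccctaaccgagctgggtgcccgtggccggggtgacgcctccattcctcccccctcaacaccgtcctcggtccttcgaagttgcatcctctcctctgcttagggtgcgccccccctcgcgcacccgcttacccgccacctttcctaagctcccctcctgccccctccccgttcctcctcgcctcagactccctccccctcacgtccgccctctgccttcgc
Phlda2, chr7:143502525-143502774, minus strand: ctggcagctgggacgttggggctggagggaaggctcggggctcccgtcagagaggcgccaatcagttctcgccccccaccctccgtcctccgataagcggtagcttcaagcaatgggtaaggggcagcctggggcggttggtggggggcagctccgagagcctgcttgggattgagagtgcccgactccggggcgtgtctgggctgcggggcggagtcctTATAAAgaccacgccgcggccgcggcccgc
Dlk1, chr12:109452573-109452822, plus strand: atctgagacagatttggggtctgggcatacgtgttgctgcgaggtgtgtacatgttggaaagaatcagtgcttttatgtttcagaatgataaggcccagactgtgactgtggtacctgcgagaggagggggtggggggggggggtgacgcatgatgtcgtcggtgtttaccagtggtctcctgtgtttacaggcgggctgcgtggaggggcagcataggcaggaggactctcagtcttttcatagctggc
Peg3, chr7:6730420-6730669, minus strand: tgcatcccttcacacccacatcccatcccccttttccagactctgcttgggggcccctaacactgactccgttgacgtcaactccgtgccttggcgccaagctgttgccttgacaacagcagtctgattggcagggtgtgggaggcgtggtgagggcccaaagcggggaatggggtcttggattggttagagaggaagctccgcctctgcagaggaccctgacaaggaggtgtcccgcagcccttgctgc
Zim1, chr7:6696433-6696682, minus strand: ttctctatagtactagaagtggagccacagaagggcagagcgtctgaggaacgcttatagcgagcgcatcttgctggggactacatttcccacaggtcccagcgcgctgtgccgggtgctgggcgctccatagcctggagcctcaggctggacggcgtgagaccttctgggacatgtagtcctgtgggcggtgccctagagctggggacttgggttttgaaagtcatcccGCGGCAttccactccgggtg
Airn, chr17:12741061-12741310, plus strand: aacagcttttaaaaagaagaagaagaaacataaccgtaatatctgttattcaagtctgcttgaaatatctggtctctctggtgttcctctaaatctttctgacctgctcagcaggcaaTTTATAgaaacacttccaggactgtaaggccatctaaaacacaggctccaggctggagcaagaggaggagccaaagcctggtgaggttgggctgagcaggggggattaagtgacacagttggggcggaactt

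These promoters differed in base composition. The stretches of Igf2 and Phlda2 held 22 and 21 CpG, that of Zim1 held 14, those of Dlk1 and Peg3 held 8 each and that of Airn held 2. The ZFP57 hexamer occurred once in that of Zim1, and TATAAA once each in those of Phlda2 and Airn. The stretch of Peg3 runs toward Usp29, whose start lies 164 bases from that of Peg3 on the opposite strand. Over the full 300-base windows, which add 50 bases after the start, the hexamer was in 12 of the 44 promoters of members (27.3%), against 11.6% of all 32851 promoters. The 11 members concerned were Copg2, Grb10, Igf2, Mcts2, Meg3, Mest, Nap1l5, Nnat, Plagl1, Snrpn and Zim1. TATAAA was in 10 of the 44 (22.7%), against 13.6% of all promoters, and the median number of CpG was 13.5 in members against 7 in all.

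At day 8 of differentiation, 18 of 38 tested members were lower and 1, Igf2r, was higher with GSK343 than with DMSO, by limma with Benjamini-Hochberg adjusted p under 0.05. The share called over all 14016 tested genes was 31.6%, with 16% lower and 15.6% higher. The median log2 difference was -0.59 over the members and 0.00 over all genes, and 33 of the 38 members had a negative sign. All differences are on the scale of log2(RPKM + 1), which understates changes of genes at low RPKM. By parental copy, 12 of 20 paternal members and 5 of 17 maternal members were lower, with medians of -1.06 and -0.46, and the maternal Igf2r was the member that was higher.

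In ES cells, 0 of 38 members were called between GSK343 and DMSO, where 0% of all genes were called by limma. There, 4 members and 669 of all 14016 tested genes had an unadjusted p under 0.05. At day 4 the count was again 0 of 38, where 0.628% of all genes were called, with 5 members and 1448 genes at an unadjusted p under 0.05. The voom version of limma on recovered reads gave 0 members at both stages, and its calls over all genes were not counted. The nearest at day 4 were Phlda2, with a log2 difference of -0.71 (limma, adjusted p = 0.114), and Grb10, at -1.30 (limma, adjusted p = 0.146). A test of the difference itself, that is whether the GSK343 effect at day 8 differed from that at day 4, called 12 of 38 members, all toward lower values at day 8, against 12.2% of all genes (5.68% up and 6.51% down). The same test of day 4 against ES cells called 0 members by limma, against 0.0214% of all genes, and 0 by voom.

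Many members changed with stage. From ES cells to day 4, 12 members rose and 6 fell, where 32.8% of all genes were called (17.1% up and 15.7% down). From day 4 to day 8, 20 rose and 4 fell, against 41.4% of all genes (23.3% up and 18.1% down). With GSK343, 12 rose and 6 fell to day 4, against 22% of all genes (9.75% up and 12.3% down), and 4 rose and 0 fell to day 8, against 0.706% (0.649% up and 0.0571% down). The 4 were H19, Peg3, Igf2 and Sgce, with Peg3 and Sgce called in 1 of 4 fits that left out a library. Both GSK343 counts changed when single libraries were left out, which leaves 1 library in a group. In those fits the rise to day 8 was 2.58 to 3.99 for H19 and 1.53 to 2.20 for Igf2. It was 1.18 to 1.63 for Peg3 and 0.96 to 1.43 for Sgce. A group left with 1 library is taken to vary like the others. These comparisons share the day 4 and day 8 libraries with each other and with the comparison of GSK343 and DMSO, so their counts are not independent of it. Over the members the median change from day 4 to day 8 in DMSO was 0.79, and 0.05 over all genes.

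**Figure D1:**
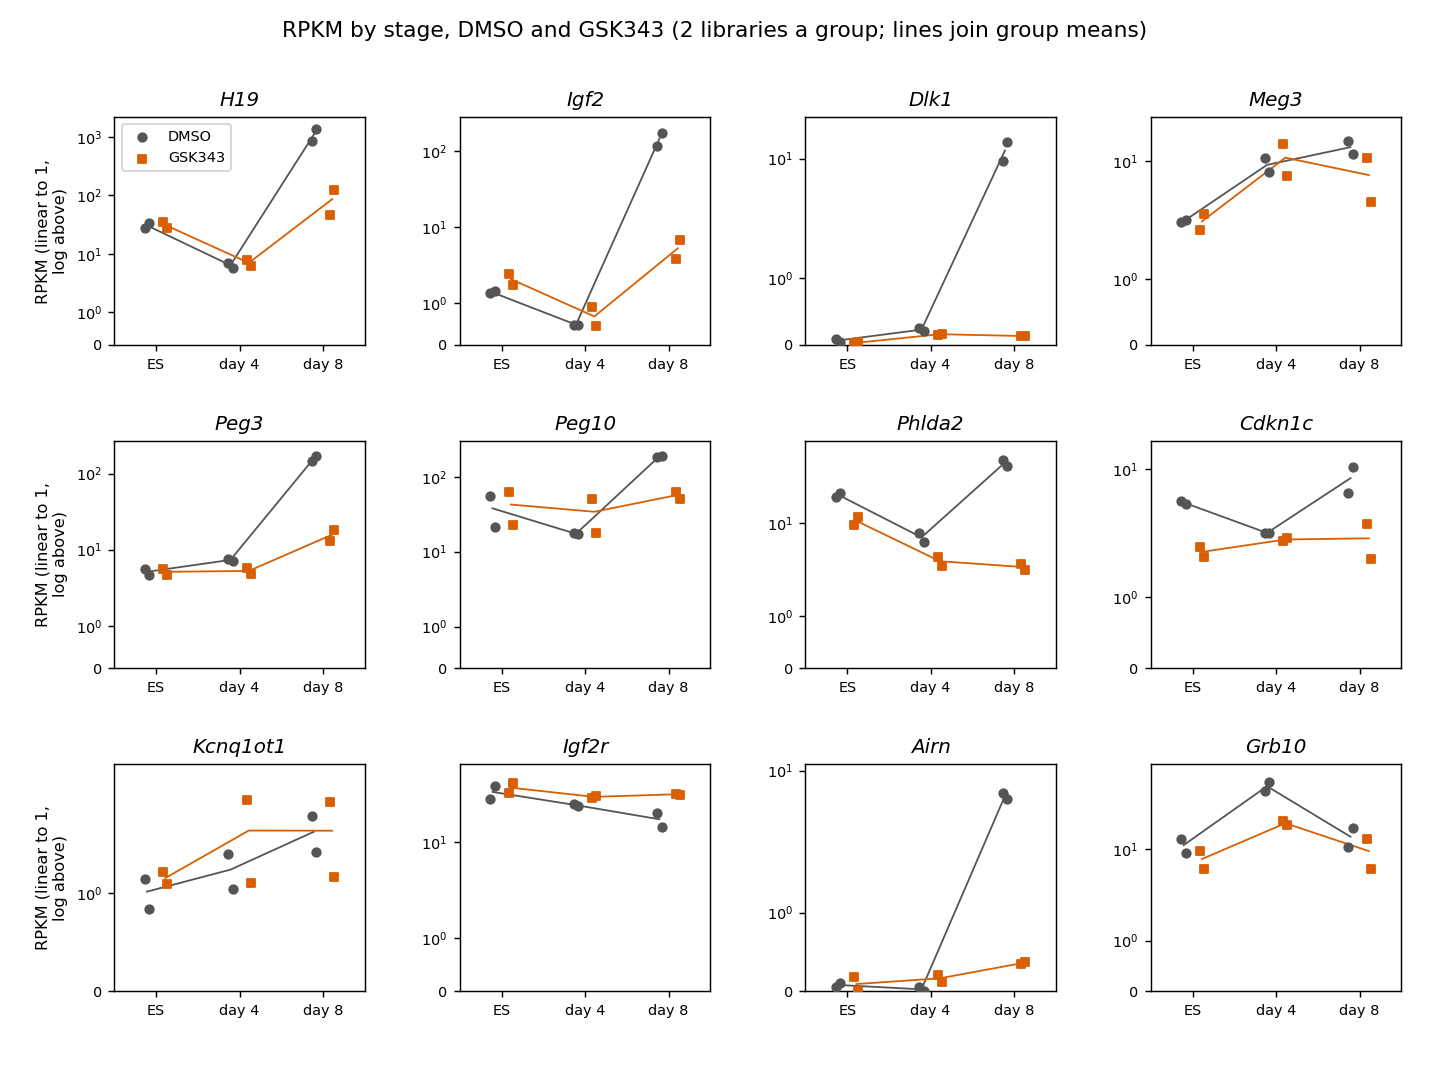
RPKM of 12 imprinted genes (y axis, linear to 1 and logarithmic above) in ES cells, day 4 and day 8 (x axis) of DMSO and GSK343 cultures; each point is a library and lines join group means. At day 8 the DMSO libraries of Igf2 (116 and 173) and Dlk1 (9.52 and 13.8) lie above both GSK343 libraries, while those of Kcnq1ot1 overlap them.

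Both genes of the Igf2-H19 pair rose steeply from day 4 to day 8 in DMSO and less with GSK343. Igf2, a paternal growth factor, was at 1.32 and 1.41 RPKM in the DMSO libraries of ES cells, 0.475 and 0.481 at day 4, and 116 and 173 at day 8. With GSK343 it was at 2.37 and 1.72 in ES cells, 0.902 and 0.446 at day 4, and 3.78 and 6.62 at day 8. Both day 8 groups lay above their day 4 libraries, and the 2 day 8 groups did not overlap. H19, the maternal noncoding RNA of the pair, was at 27.5 and 33.9 RPKM in DMSO ES cells, 7.03 and 5.77 at day 4, and 847 and 1359 at day 8. With GSK343 H19 was at 34.9 and 27.7, then 7.75 and 6.31, then 47.0 and 126. So H19 fell to day 4 under both treatments and then rose under both, to levels at day 8 that did not overlap. With GSK343 the calls to day 8 were kept in 2 of 4 fits that left out a library for H19 and in 1 of 4 for Igf2. The day 8 difference was -4.56 for Igf2 (SE 0.26, limma, adjusted p = 1.38e-06) and -3.78 for H19 (SE 0.38, limma, adjusted p = 6.18e-05).

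In the Kcnq1 cluster the growth-restraining genes moved and the noncoding RNA did not pass a test. Phlda2, a maternal gene that limits placental growth, was at 19.4 and 21.2 RPKM in DMSO ES cells, 7.91 and 6.23 at day 4, and 48.5 and 41.4 at day 8. With GSK343 it was at 9.61 and 11.7, then 4.37 and 3.46, then 3.64 and 3.14. The GSK343 libraries lay below the DMSO libraries at every stage, and the difference passed the test at day 8 alone, at -3.39 (SE 0.17, limma, adjusted p = 7.57e-07). Cdkn1c, the maternal cell cycle inhibitor p57, was at 5.65 and 5.29 RPKM in DMSO ES cells, 3.18 and 3.15 at day 4, and 6.52 and 10.4 at day 8. With GSK343 Cdkn1c was at 2.44 and 2.06, 2.73 and 2.90, and 3.75 and 2.00. It differed at day 8 by -1.30 (SE 0.24, limma, adjusted p = 0.00261). Kcnq1ot1, the paternal noncoding RNA that silences the cluster, was at 1.20 and 0.838 RPKM in DMSO ES cells, 1.67 and 1.05 at day 4, and 2.73 and 1.72 at day 8. With GSK343 Kcnq1ot1 was at 1.31 and 1.12, 3.38 and 1.15, and 3.29 and 1.23, so the groups overlapped at all 3 stages. The other 4 members of the cluster, Slc22a18, Ascl2, Cd81 and Tssc4, were not called at day 8, and the nearest was Ascl2, a trophoblast transcription factor, at -0.46 (limma, adjusted p = 0.0578). Slc22a18, a transporter gene, and the tetraspanin gene Cd81 fell from ES cells to day 4 in DMSO, by 1.69 and by 0.87, and the call of Cd81 was kept in 1 of 4 fits that left out a library.

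In the Dlk1-Dio3 cluster, Dlk1 was the 1 member called between GSK343 and DMSO at day 8. Dlk1, a paternal transmembrane protein related to Notch ligands, was at 0.0823 and 0.0506 RPKM in DMSO ES cells, 0.247 and 0.212 at day 4, and 9.52 and 13.8 at day 8. With GSK343 Dlk1 was at 0.0212 and 0.0415, 0.155 and 0.166, and 0.132 and 0.134. It was at or below 0.166 RPKM in all 6 GSK343 libraries, and the day 8 difference was -3.46 (SE 0.15, limma, adjusted p = 2.76e-07), the smallest p among members. Meg3, the maternal noncoding RNA, was at 3.05 and 3.15 RPKM in DMSO ES cells, 10.6 and 8.07 at day 4, and 14.8 and 11.6 at day 8. With GSK343 Meg3 was at 2.60 and 3.59, 14.0 and 7.48, and 10.7 and 4.55. It passed the test to day 4 under both treatments, but the DMSO call was lost in all 4 fits that left out 1 library and the GSK343 call was kept in 1 of 4, and its day 8 difference of -0.80 did not pass (limma, adjusted p = 0.111). Rian and Mirg, maternal hosts of small RNAs, rose with Meg3 to day 4 in DMSO, by 1.69 and 1.77, and so did the paternal, retrotransposon-derived Rtl1, by 1.61, whose call was kept in 1 of 4 fits that left out a library. Mirg was at 8.06 and 9.0 RPKM in DMSO ES cells, 29.7 and 33.3 at day 4, and 17.7 and 18.2 at day 8, and with GSK343 at 7.89 and 6.77, 28.6 and 36.7, and 20.3 and 9.67. Rtl1 lies opposite to a maternal antisense transcript, and no source used here says whether counting kept the strands apart, so their reads may be mixed. The same holds for the other overlapping pairs among or beside the members: Airn and Igf2r, Kcnq1ot1 and Kcnq1, Nespas and Gnas, Mest and Copg2, Mcts2 in H13, Nap1l5 in Herc3, Zrsr1 in Commd1, Nnat in Blcap and Peg13 in Trappc9.

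All 3 members of the Peg3 cluster rose from day 4 to day 8 in DMSO and were lower with GSK343 at day 8. Peg3, a paternal zinc finger protein, was at 5.64 and 4.60 RPKM in DMSO ES cells, 7.61 and 7.07 at day 4, and 147 and 170 at day 8. With GSK343 Peg3 was at 5.53 and 4.71, 5.77 and 4.75, and 13.2 and 18.4. Its day 8 groups did not overlap and differed by -3.26 (SE 0.18, limma, adjusted p = 1.31e-06). Zim1, a maternal zinc finger gene beside it, was at 0.178 and 0.111 RPKM in DMSO ES cells, 0.307 and 0.146 at day 4, and 7.77 and 9.82 at day 8. With GSK343 Zim1 was at 0.189 and 0.228, 0.263 and 0.167, and 0.403 and 0.600, so its high libraries were the 2 of DMSO at day 8. The day 8 difference was -2.70 (SE 0.14, limma, adjusted p = 9.05e-07). Usp29, a ubiquitin protease gene whose start faces that of Peg3, was at 1.67 and 1.47 RPKM against 0.130 and 0.143, a difference of -1.18 (SE 0.10, limma, adjusted p = 1.58e-05).

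All 3 members of the Peg10 cluster, and Mest, were lower with GSK343 at day 8. Peg10, a paternal retrotransposon-derived gene that the placenta needs, was at 54.5 and 21.3 RPKM in DMSO ES cells, 17.6 and 17.0 at day 4, and 185 and 191 at day 8. With GSK343 Peg10 was at 62.4 and 22.7, 50.3 and 17.9, and 63.3 and 51.1. The first library was the higher one in ES cells under both treatments and at day 4 with GSK343, and the day 8 difference of -1.71 (SE 0.55, limma, adjusted p = 0.0382) was lost when any 1 of the 4 day 8 libraries was left out. Its neighbours Sgce, which encodes a sarcoglycan of the muscle membrane, and Asb4, which encodes an adaptor of a ubiquitin ligase, were lower at day 8 with GSK343, at 8.92 and 12.7 RPKM against 40.7 and 56.5 for Sgce and 0.772 and 0.171 against 8.59 and 6.27 for Asb4. Those 2 differences were -2.07 and -2.54 (limma, adjusted p = 6.16e-05 and 1.11e-05). Mest, a paternal gene of the mesoderm, was at 20.0 and 13.3 RPKM in DMSO ES cells, 35.2 and 35.6 at day 4, and 85.9 and 162 at day 8. With GSK343 Mest was at 22.4 and 13.2, 44.8 and 39.5, and 44.4 and 34.6. It rose in both steps in DMSO, where the call to day 4 was kept in 1 of 4 fits that left out a library, and the day 8 groups differed by -1.56 (SE 0.31, limma, adjusted p = 0.00393). Its overlapping neighbour Copg2, a coatomer subunit, was not called at day 8.

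In the Igf2r cluster the receptor gene and its antisense RNA moved in opposite directions. Airn, the paternal noncoding RNA that silences Igf2r, was at 0.0517 and 0.111 RPKM in DMSO ES cells, 0.0518 and 0 at day 4, and 6.98 and 6.28 at day 8. With GSK343 Airn was at 0.186 and 0, 0.210 and 0.121, and 0.353 and 0.369. Only the DMSO libraries of day 8 exceeded 1 RPKM, and the day 8 difference was -2.49 (SE 0.12, limma, adjusted p = 6.79e-07). Igf2r, the maternal receptor that clears IGF2, was at 27.9 and 38 RPKM in DMSO ES cells, 24.8 and 23.3 at day 4, and 20.1 and 14.1 at day 8. With GSK343 Igf2r was at 32.5 and 40.4, 28.8 and 29.8, and 31.6 and 30.8. Its day 8 libraries with GSK343 lay above both DMSO libraries, by 0.85 (SE 0.19, limma, adjusted p = 0.00713), and the call was lost without DMSO library 2 of day 8.

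Members of the Snrpn cluster differed in their course. Magel2, a paternal member of the MAGE family, was at 0.194 and 0.157 RPKM in DMSO ES cells, 9.91 and 11.4 at day 4, and 1.74 and 1.5 at day 8. With GSK343 Magel2 was at 0.0656 and 0.129, 8.39 and 5.72, and 3.90 and 0.763. It rose to day 4 by 3.31 in DMSO and was not called between treatments at any stage. Its neighbour Ndn (necdin), a regulator of neuronal growth, was at 10.6 and 9.68 RPKM in DMSO ES cells, 36.6 and 41.3 at day 4, and 60.1 and 84.3 at day 8, and with GSK343 at 9.82 and 6.41, 22.9 and 24.5, and 23.9 and 15.0. Ndn was lower with GSK343 at day 8, where the difference was -1.85 (SE 0.24, limma, adjusted p = 0.000309). Snrpn, a splicing factor gene, was at 0.0966 and 0, 0.829 and 0.181, and 0.253 and 0.0835 RPKM in DMSO at the 3 stages. With GSK343 Snrpn was at 0.0497 and 0, 0.688 and 0.143, and 0.532 and 0.0395, and at each stage and treatment library 1 was the higher one.

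Among the single genes, Grb10, a maternal adaptor that restrains insulin signalling, was at 13.1 and 9.09 RPKM in DMSO ES cells, 43.9 and 53.9 at day 4, and 10.5 and 16.9 at day 8. With GSK343 Grb10 was at 9.62 and 6.0, 20.3 and 18.3, and 13.1 and 6.02. It rose to day 4 under both treatments, with the GSK343 call kept in 1 of 4 fits that left out a library, and in DMSO it fell again to day 8 by 1.79. Nnat (neuronatin), a paternal membrane protein of neural cells, was at 10.2 and 9.74 RPKM in DMSO ES cells, 61.4 and 78.1 at day 4, and 32.2 and 71.3 at day 8. With GSK343 Nnat was at 13.9 and 9.87, 30.3 and 37.7, and 35.4 and 16.8, and its day 8 groups overlapped. Impact, a paternal regulator of translation, was at 61.8 and 49.9 RPKM in DMSO ES cells, 175 and 160 at day 4, and 76.6 and 73.1 at day 8. With GSK343 Impact was at 58.0 and 54.1, 159 and 147, and 113 and 78.7. It rose to day 4 by 1.57 and fell to day 8 by 1.15 in DMSO. Plagl1, a paternal zinc finger regulator of growth genes, and Zrsr1 were lower at day 8 with GSK343, by 1.72 and 0.53. Dcn, a maternal matrix proteoglycan gene expressed by fibroblasts, was at 1.13 and 2.99, 0.807 and 0.859, and 0.318 and 0.894 RPKM in DMSO and at 6.47 and 5.22, 0.930 and 1.34, and 0.194 and 0.435 with GSK343. Dcn fell from ES cells to day 4 with GSK343, by 1.68, and was not called at day 8. Nap1l5 was not called either, and Peg13 was below the expression filter of this experiment.

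The remaining 2 clusters held Gnas with Nespas, and H13 with Mcts2. Gnas, which encodes the stimulatory G protein alpha subunit, was at 21.7 and 18.7, 53.7 and 54.1, and 110 and 125 RPKM in DMSO and at 27.8 and 20.6, 47.9 and 46.2, and 48.3 and 35.9 with GSK343. It rose in both steps in DMSO, and its day 8 difference was -1.47 (SE 0.18, limma, adjusted p = 0.00018). Its antisense RNA Nespas had a day 8 difference of 0.00. Mcts2, a retrogene inside H13, was lower by 0.36, and H13, which encodes a signal peptide peptidase, was not called. Each day 8 library was left out in turn, which leaves 1 library in a group, and calls over all genes were not counted in these fits. Peg10 and Mcts2 lost their calls in all 4 of those fits, Zrsr1 in 3 and Igf2r in 1, and the other 15 members kept theirs in all 4.

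**Figure D2:**
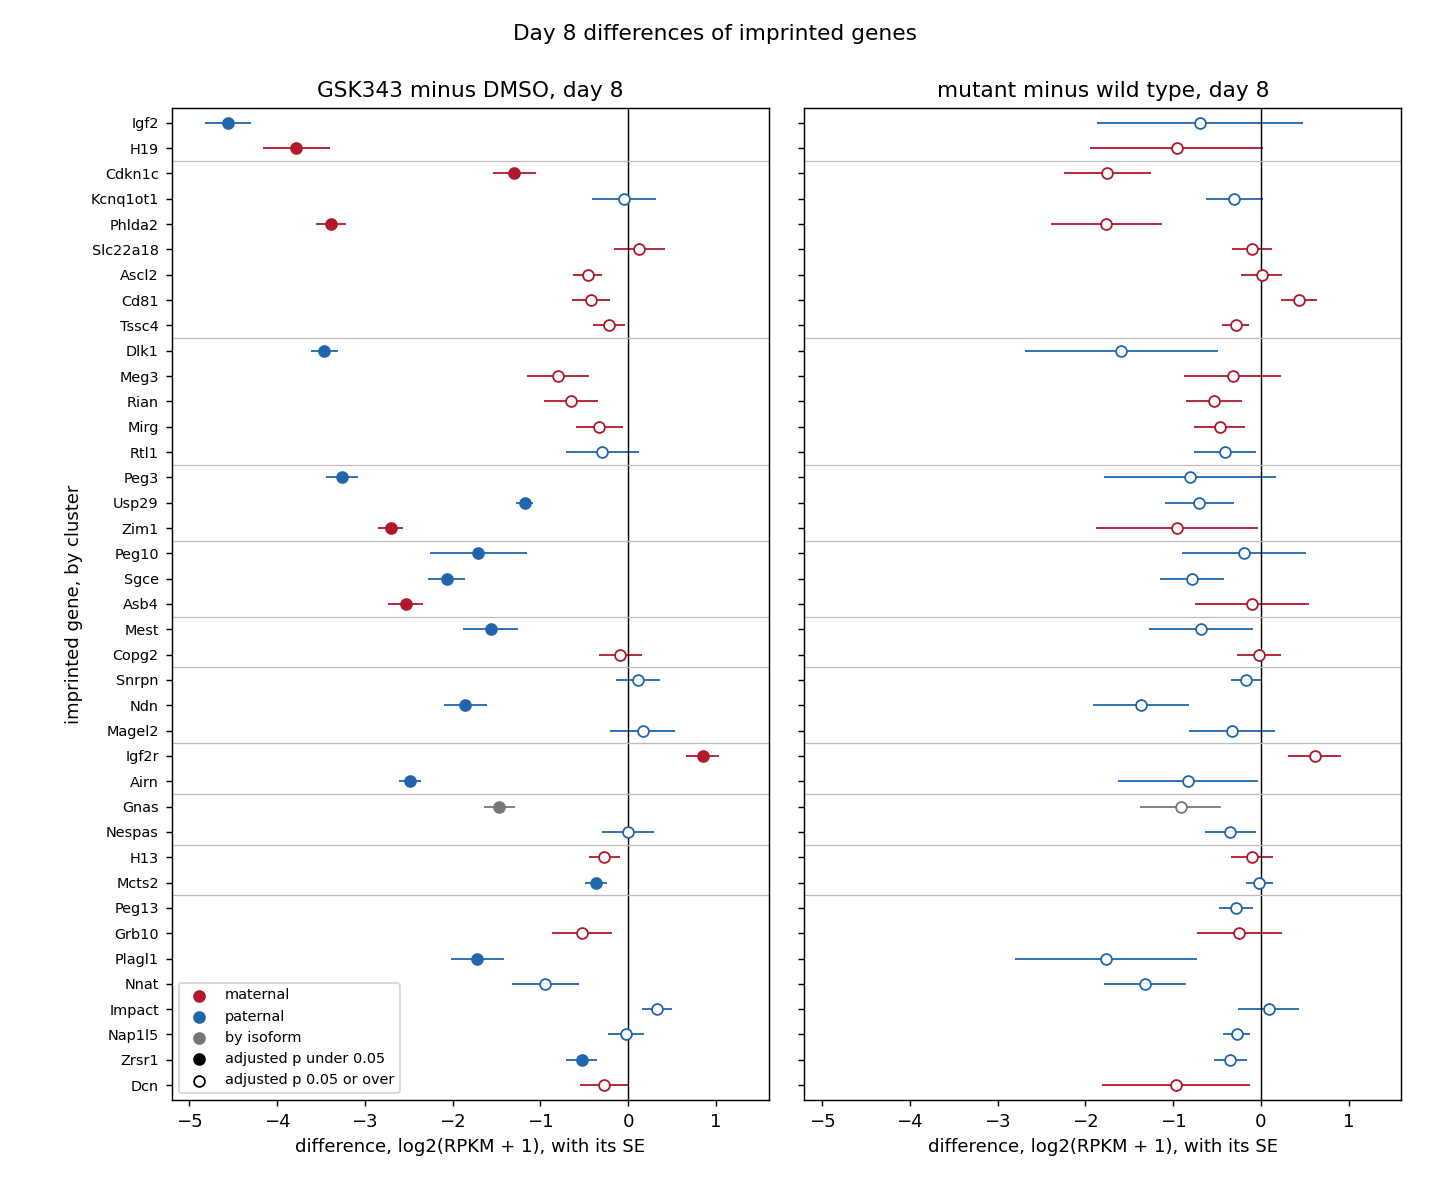
Difference on the scale of log2(RPKM + 1), with its SE (x axis), of each tested member (y axis, by cluster) between GSK343 and DMSO at day 8 and between mutant and wild type at day 8; colour gives the parental copy and filled points have an adjusted p under 0.05. On the GSK343 side 18 filled points lie below 0 and 1, Igf2r, above it, and on the mutant side 0 points are filled.

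Marker levels of other cell types moved with this comparison, and their part in it was not tested. At day 8 the summed level of 20 pluripotency genes was 160 to 205 RPKM in DMSO and 1611 to 2313 with GSK343, and 18 of the 20 were higher by limma. The sum of 24 genes of feeder fibroblasts and mesenchyme was 1031 to 1290 RPKM in DMSO and 387 to 390 with GSK343, that of 11 cardiac genes 192 to 211 and 15.0 to 45.1, that of 13 visceral endoderm genes 174 to 247 and 7.03 to 40.4, and that of 9 trophoblast genes 730 to 905 and 151 to 359. The 4 lists had 15, 10, 9 and 6 genes lower and 0 higher, and no gene of any of these lists was at 0 in every library of a day 8 group. From day 4 to day 8 in DMSO, 19 of the 24 mesenchymal genes rose and 1 fell, and 2 of the 20 pluripotency genes rose and 13 fell, which was likewise not tested against the members. From ES cells to day 4 the feeder and mesenchyme sum went from 437 to 505 RPKM down to 141 to 155 in DMSO. With GSK343 it went from 589 to 938 down to 165 to 242. Of the 24 genes 17 and 20 fell, and 0 rose. Their part in the falls of H19 and Phlda2 to day 4 under both treatments was not tested.

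H3K27me3 lay near many members. A gene was counted where one of the authors' peaks, merged over the wild-type stages, came within 1 kb of its start. Where no start was in the table, a peak within 1 kb of the gene span was counted. This held for 21 of 39 members (53.8%), against 28.4% of the 15902 genes with a position. A single domain, chr7:143298829-143509025, spanned 210197 bases and covered Cdkn1c, Slc22a18 and Phlda2. Domains of 55156 bases, 33833 bases and 48572 bases lay over the starts of Igf2 (chr7:142613042-142668197), Dlk1 (chr12:109432250-109466082) and Grb10 (chr11:12010727-12059298). In the Igf2r cluster, separate peaks lay at the start of Airn (chr17:12741174-12746552) and at that of Igf2r (chr17:12766640-12774487). Peg3, Usp29 and Zim1 had no H3K27me3 peak by this rule, so of the 6 printed promoters those of Igf2, Phlda2 and Dlk1 lay in a peak, that of Airn overlapped one, and those of Peg3 and Zim1 did not.

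Peaks of the complexes were fewer. In the merged lists SUZ12, a subunit of Polycomb repressive complex 2, was near Igf2, Cdkn1c, Ascl2 and Grb10 (10.3% of members, 2.6% of all genes). RING1B, of Polycomb repressive complex 1, was near Igf2, Ascl2, Peg10, Sgce, Gnas and Grb10 (15.4% and 4.6%), and EZH2 near Grb10 alone (2.6% and 1.8%). Lists of single SUZ12 libraries held 0 to 8 members by the same rule. The 8 were in wild-type day 8 library 2, with Phlda2 and Plagl1 among them (20.5% of members, 15.7% of all genes). Mutant ES cell library 1 held 5, with Phlda2 and Gnas among them (12.8% and 5.7%). Mutant day 4 library 1 held 0, against 5.3% of all genes. Of the 21 members with an H3K27me3 peak, 12 were lower and 1 higher at day 8 with GSK343, with a median of -1.47, and of the 17 tested members without one, 6 were lower, with a median of -0.36. Among all tested genes, 28.8% of 3655 with such a peak were lower and 17.5% higher, and 11.5% of 10345 without one were lower and 15.0% higher. The authors' deposited table calls 23 of 37 members a PRC2 target (62.2%), against 32.2% of 14833 genes, by a rule that no source used here states. Of these 23, 12 were lower and 1 higher at day 8, with a median of -1.30, and of the other 13 that were tested, 6 were lower, with a median of -0.53. Among all tested genes, 25.2% of 4040 that the authors' deposited table calls targets were lower and 16.5% higher, against 11.3% and 14.8% of 9182 others. Whether the difference between these groups of members exceeds chance was not tested.

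In the wild-type and mutant experiment no member was called between genotypes at any stage. At ES cells 0 of 39 were called (0.0917% of all genes), at day 4 0 of 39 (0.0494%) and at day 8 0 of 39 (1.51%), by limma with Benjamini-Hochberg adjustment. At an unadjusted p under 0.05 there were 4, 1 and 6 members, against 857, 661 and 2035 of all 14180 tested genes. The voom version of limma gave 0 members at each stage, and its calls over all genes were not counted. At day 4, where same-numbered libraries varied together, the fit with the library number as a block gave 0 as well. The median difference of the members was -0.34, -0.12 and -0.35, against 0.00, -0.01 and -0.02 over all genes, and 35, 30 and 35 of the 39 had a negative sign. The smallest adjusted p at day 8 was that of Cdkn1c, with a difference of -1.75 (SE 0.50, limma, adjusted p = 0.0946).

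Single libraries decided the day 8 counts. Cdkn1c was at 14.3, 12.1 and 2.93 RPKM in wild-type libraries 1 to 3 and at 3.98, 1.08 and 1.0 in the mutant libraries. Phlda2 was at 23.7, 21.6 and 3.99 in wild type and 6.47, 3.64 and 1.07 in the mutant. In both genes wild-type library 3 lay within the mutant range. Without that library, 7 members were lower in the mutant (9.22% of all genes were then called): Cdkn1c by 2.37, Phlda2 by 2.51, Plagl1 by 3.30, Dlk1 by 3.26, Nnat by 1.73, Usp29 by 1.32 and Sgce by 1.18. Without mutant library 1, 3 members were lower (3.74% of all genes), namely Nnat, Cdkn1c and Ndn.

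For 7 other members the same 2 libraries stood apart from their groups. Igf2 was at 283, 251 and 4.33 RPKM at day 8 in wild type and 233, 19 and 18.3 in the mutant. H19 was at 872, 1096 and 58.9, and 936, 146 and 55.4. Dlk1 was at 27.2, 43.2 and 0.0992, and 22.4, 0.717 and 0.250. For all 3 the wild-type libraries 1 and 2 and the mutant library 1 were high and the other 3 low. Peg3 (245, 252 and 10.7 against 196, 22.6 and 28.2), Peg10 (297, 312 and 33.7 against 292, 56.6 and 127), Mest (167, 167 and 32.6 against 176, 45.3 and 26.6) and Airn (13.4, 12.6 and 0.364 against 14.8, 0.525 and 0.972) had the same 3 libraries high and the other 3 low. Meg3 was at 14.6, 26.0 and 8.85 RPKM in wild type and 24.9, 7.47 and 8.62 in the mutant, and Nnat at 93.8, 91.7 and 39.2, and 70.0, 22.1 and 12.8. Grb10 was high in library 3 of both genotypes, at 11.5, 13.6 and 30.1 RPKM in wild type and 8.92, 10.8 and 28.1 in the mutant. Igf2r was at 12.9, 12.5 and 26.4, and 31.6, 15.9 and 32.3, so wild-type library 3 was its high one. Kcnq1ot1, at 4.91, 4.79 and 2.57, and 4.53, 1.36 and 3.99, and Snrpn, at 0.256, 0.0585 and 0.417, and 0.0153, 0 and 0.305, overlapped between genotypes.

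Mesenchymal and cardiac marker sums set the same libraries apart at day 8. Pluripotency genes summed to 77.7, 82.6 and 794 RPKM in wild-type libraries 1 to 3 and 664, 1861 and 1358 in the mutant libraries, and mesenchymal genes to 1634, 1504 and 348, and 1280, 412 and 428. Cardiac genes summed to 346, 275 and 35.7, and 263, 38 and 30.6. Pluripotency sums placed mutant library 1 near wild-type library 3, and visceral endoderm genes, at 165, 202 and 23.7 in wild type and 376, 107.5 and 507.5 in the mutant, did not group the libraries that way. Between genotypes 2 of 20 pluripotency genes and 6 of 14 visceral endoderm genes were higher in the mutant and 0 lower, and no gene of these lists was at 0 in every library of either day 8 group. Their part in the members' values was not tested. Among ES cells, Dcn was at 0.321, 1.08 and 24.9 RPKM in wild type and 0.573, 1.97 and 12.4 in the mutant, with the feeder and mesenchyme list at 416, 392 and 2477, and 373, 975 and 795.

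**Figure D3:**
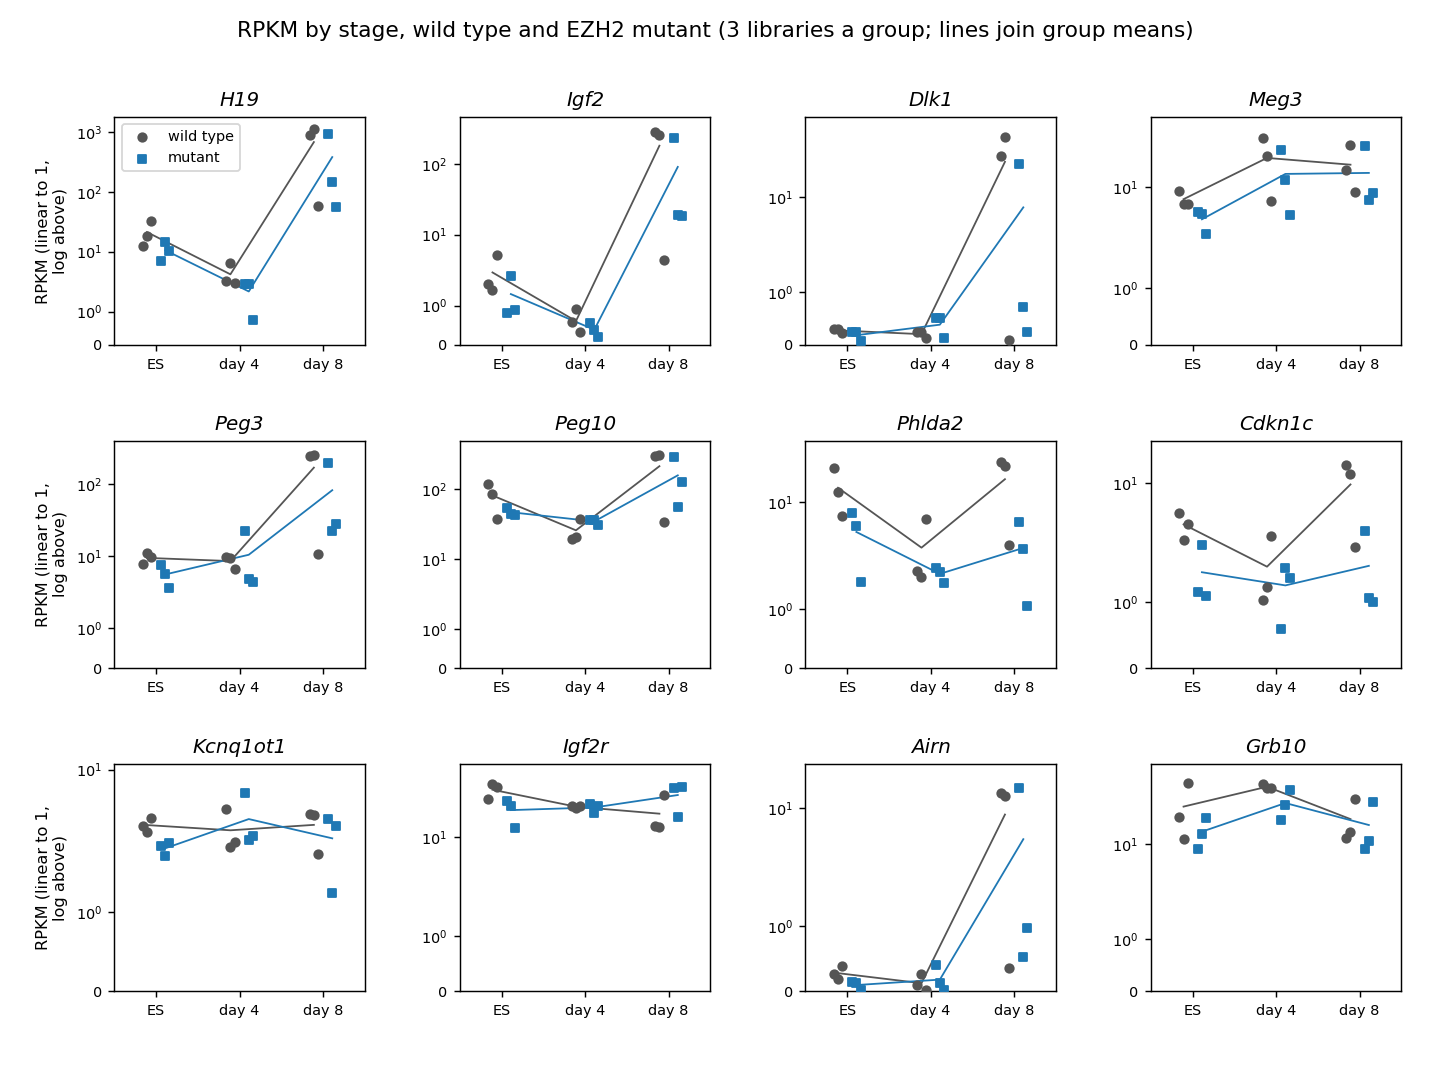
RPKM of 12 imprinted genes (y axis, linear to 1 and logarithmic above) in ES cells, day 4 and day 8 (x axis) of wild-type and EZH2-mutant cultures; each point is a library and lines join group means. At day 8 the points of Igf2 spread from 4.33 to 283 in wild type and from 18.3 to 233 in the mutant, and the genotypes overlap.

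In ES cells and at day 4 the groups of the 2 genotypes overlapped for some members and lay apart for others, and no difference passed the test. How many of all genes lay apart between these groups was not counted. Lying apart is therefore given only as a description of the values. Igf2 was at 2.03, 1.67 and 5.08 RPKM in wild-type and 0.809, 2.65 and 0.895 in mutant ES cells, and at day 4 at 0.577, 0.901 and 0.336, and 0.561, 0.389 and 0.205. H19 was at 12.6, 18 and 33.1, and 7.01, 14.4 and 10.3 in ES cells, and at day 4 at 3.18, 6.37 and 3.02, and 2.93, 2.84 and 0.741. Dlk1 was at 0.292, 0.301 and 0.230, and 0.241, 0.243 and 0.0648 in ES cells, and at day 4 at 0.240, 0.242 and 0.128, and 0.516, 0.507 and 0.126. Of these 3, H19 at day 4 was the case without overlap. Cdkn1c was at 5.67, 3.30 and 4.56 RPKM in wild-type and 1.22, 3.01 and 1.12 in mutant ES cells, and at day 4 at 1.03, 1.35 and 3.58, and 0.594, 1.95 and 1.6. Kcnq1ot1 was at 4.02, 3.63 and 4.59, and 2.90, 2.46 and 3.06 in ES cells, and at day 4 at 5.25, 2.88 and 3.11, and 6.86, 3.19 and 3.43. Meg3 was at 9.12, 6.77 and 6.73, and 5.59, 5.34 and 3.42 in ES cells, and at day 4 at 30.1, 20.1 and 7.32, and 23.0, 11.7 and 5.33. All 3 lay higher in wild-type ES cells without overlap, and overlapped at day 4.

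Peg3 was at 7.81, 10.9 and 9.6 RPKM in wild-type and 7.43, 5.62 and 3.66 in mutant ES cells, and at day 4 at 9.64, 9.42 and 6.54, and 22.2, 4.83 and 4.36. Igf2r was at 24.2, 34.4 and 31.7, and 23.0, 20.8 and 12.4 in ES cells, and at day 4 at 20.6, 19.6 and 20.8, and 21.7, 17.5 and 20.7. Snrpn was at 0.241, 0.353 and 0.702, and 0.124, 0.0220 and 0.209 in ES cells, and at day 4 at 0.956, 0.782 and 0.852, and 0.789, 0.331 and 0.769. These 3 too lay higher in wild-type ES cells and overlapped at day 4. The Snrpn values of ES cells rest on few reads, 19, 14 and 65 in wild type and 11, 1 and 22 in the mutant. Nnat was at 21.3, 14.3 and 26.4 RPKM in wild-type and 9.13, 12.1 and 11.1 in mutant ES cells, and at day 4 at 73.1, 80.1 and 48.3, and 29.0, 40.6 and 25.5. It lay higher in wild type at both stages, by a difference at day 4 of 1.05 that did not pass (SE 0.47, limma, adjusted p = 1). Grb10 was at 19.3, 11.3 and 44.2 RPKM in wild-type and 8.86, 12.7 and 19 in mutant ES cells, and at day 4 at 43.0, 39.4 and 38.9, and 18, 25.9 and 37.6. Peg10 was at 121, 86.5 and 37.7, and 55.0, 44.0 and 42.3 in ES cells, and at day 4 at 19.5, 20.5 and 37.7, and 36.9, 36.2 and 31.3. Mest was at 29.9, 19.3 and 20.3, and 29.7, 29.5 and 22.3 in ES cells, and at day 4 at 36.6, 29.8 and 34.8, and 46.4, 50.3 and 38.9. At day 4 Grb10 lay lower and Mest higher in the mutant without overlap, and Peg10 overlapped at both stages.

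Within each genotype, H19, Igf2 and Sgce rose from day 4 to day 8. In wild type, 4 members rose and 2 fell to day 4, against 8.67% of all genes (4.29% up and 4.39% down), and 9 rose and 2 fell to day 8, against 20.7% (10.6% up and 10.2% down). With the library number as a block, since same-numbered libraries varied together, the counts were 10 (16.1% of all genes) and 22 (34.6%). In the mutant, 2 rose and 2 fell to day 4, against 6.37% (3.1% up and 3.27% down), and 4 rose and 2 fell to day 8, against 10.3% (5.99% up and 4.35% down), with blocked counts of 9 (12.8%) and 11 (22.8%). From day 4 to day 8, H19 rose by 6.27 in wild type (SE 0.98, limma, adjusted p = 0.00133) and by 6.06 in the mutant (limma, adjusted p = 0.00154), and Igf2 rose by 5.51 and 5.02 (limma, adjusted p = 0.00618 and 0.0147), with the mutant call kept in 4 of 6 fits that left out a library. Without wild-type library 3 of day 8, 20 members were called from day 4 to day 8 in wild type (31.1% of all genes). Without any 1 of the other 5 libraries of that step the count was 3 to 7 (5.84% to 14.5% of all genes). To day 4 in wild type the count was 2 without library 2 of ES cells (4.14%) or library 1 (2.52%) or 2 (2.55%) of day 4. In the mutant, leaving out any 1 library left 1 to 2 members called to day 4 (2.28% to 4.94%). To day 8 the mutant count was 3 without library 2 of day 4 (3.6%) and 2 without library 1 of day 8 (4.29%). Without the second libraries of all groups, which had the highest Rn45s shares and were left out after seeing the data, 0 members were called in any of the 4 steps. The share of all genes called in those fits was not counted, so the 0 does not describe the members alone. The test of whether a stage change differed between genotypes called 0 members in either step, where 0% of all genes were called by limma, with 276 and 370 genes at an unadjusted p under 0.05, and voom gave 0 members.

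Other members called in these steps had the following values. Sgce was at 4.1, 6.68 and 4.86 RPKM in wild-type ES cells, 5.63, 3.26 and 4.72 at day 4, and 46.5, 44.0 and 19.3 at day 8, and in the mutant at 2.67, 2.83 and 4.11, 4.19, 1.81 and 2.91, and 34.0, 14.3 and 14.7. It rose to day 8 by 2.69 and 2.40. Magel2 was at 0.792, 0.422 and 1.36, then 17.8, 16.1 and 3.84, then 1.24, 1.28 and 2.83 in wild type, and at 0.149, 0.116 and 0.0585, 13.8, 6.28 and 2.49, and 1.28, 1.23 and 0.932 in the mutant. It rose to day 4 by 2.67 and 2.71 and fell to day 8 by 2.10 and 1.75, a fall kept in 5 of 6 fits that left out a library in wild type and in 1 of 6 in the mutant, in both genotypes with library 3 the lowest at day 4. Slc22a18 was at 1.63, 3.43 and 0.897 RPKM in wild-type ES cells and 0.123, 0 and 0.199 at day 4, and in the mutant at 1.14, 0.664 and 0.910, and 0.142, 0 and 0.0745. It fell to day 4 by 1.35 and 0.82, and the mutant call was lost in all 6 fits that left out a library.

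Cd81 was at 104, 122 and 167 RPKM in wild-type ES cells, 72.9, 72.2 and 80.1 at day 4, and 84.4, 134 and 103 at day 8, and in the mutant at 92.3, 115 and 127, 84.6, 76.3 and 83.1, and 174, 135 and 123. It fell to day 4 in wild type by 0.77 and rose to day 8 in the mutant by 0.80, calls kept in 2 of 6 and 3 of 6 fits that left out a library. The small RNA hosts Rian and Mirg rose to day 4 in wild type, from 64.7, 42 and 102 to 156, 124 and 146 RPKM for Rian, and from 15.0, 6.61 and 15.9 to 30.8, 23.3 and 24.8 for Mirg. The call of Rian was kept in 1 and that of Mirg in 3 of 6 fits that left out a library. In the mutant Rian went from 44.0, 41.8 and 75.7 to 94.1, 75.2 and 102 and Mirg from 10.2, 9.01 and 14.6 to 19.4, 17.1 and 17.1, and neither passed the test; with the block Rian did, at a difference of 0.78. Nespas rose to day 4 in the mutant, from 3.36, 3.17 and 2.93 to 13.3, 7.23 and 5.95 RPKM, and Mcts2 fell there, from 29.5, 35.2 and 43.8 to 25.3, 21.6 and 26.2, and both calls were kept in 1 of 6 fits that left out a library.

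The authors' deposited table of stage comparisons gave, at an adjusted p of 0.05, 15 members up and 10 down from ES cells to day 4 in DMSO (32.9% of genes) and 20 up and 6 down from day 4 to day 8 (38.5%). In the authors' deposited table for GSK343 the counts were 16 and 6 (23.5%), then 5 and 5 (8.3%). For wild type the authors' deposited table gave 4 and 7 (13.2%), then 14 and 2 (17.1%), and for the mutant 7 and 4 (12.5%), then 12 and 2 (11.5%).

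After replating, no member and no gene was called by limma in any of the 5 comparisons, so 0% of all genes in each. DMSO then GSK343 and GSK343 then DMSO were each compared with DMSO then DMSO, GSK343 then GSK343 was compared with DMSO then GSK343 and with GSK343 then DMSO, and the fifth comparison was the interaction of earlier and later GSK343. At an unadjusted p under 0.05 there were 1 member and 328 genes for GSK343 after replating only, 8 members and 3385 genes for GSK343 before replating only, and 9 members and 2633 genes for earlier GSK343 among cultures that had GSK343 after replating. Later GSK343 among cultures with earlier GSK343 gave 1 and 196, the interaction gave 1 and 187, and voom gave 0 adjusted calls among members in all 5. The members' median for GSK343 before replating only was -0.71, against -0.09 over all genes. Rescaling libraries by their median ratio moved these to -0.56 and 0.02. For GSK343 after replating only, the medians were -0.22 and -0.23, and 0.01 and -0.04 after rescaling.

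The replated cultures held high Igf2 and H19 in every group. Igf2 was at 60.9, 279 and 92.5 RPKM in DMSO then DMSO, 386, 192 and 139 in DMSO then GSK343, 39.1, 58.0 and 40.9 in GSK343 then DMSO, and 142 and 29.6 in GSK343 then GSK343. H19 was at 87.8, 462 and 107, then 884, 590 and 149, then 152, 248 and 99.7, then 420 and 166, in the same order of groups. All 3 libraries of GSK343 then DMSO lay below those of DMSO then DMSO for Igf2 and overlapped them for H19. Grb10 was at 60.1, 145 and 106, then 91.7, 72.1 and 107, then 40.8, 32 and 51.4, then 58.7 and 10.02 RPKM. Dlk1 was at 3.33, 4.73 and 5.36, then 12.9, 5.11 and 5.12, then 0.746, 2.51 and 3.47, then 3.85 and 1.06. Phlda2 was at 2.25, 0.651 and 1.08, then 0.703, 1.08 and 0, then 2.78, 8.61 and 3.63, then 0 and 0. It was thus highest in GSK343 then DMSO, at a difference of 1.31 from DMSO then DMSO that did not pass (SE 0.41, limma, adjusted p = 0.169). These Phlda2 values rest on few reads, 6, 4 and 4, then 2, 2 and 0, then 8, 20 and 16, then 0 and 0.

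Other members of the clusters overlapped between several groups. How many of all genes lay apart between the replated groups was not counted. Meg3 was at 44.1, 90.0 and 65.8, then 47.1, 58.7 and 63.4, then 43.1, 44.5 and 58.8, then 31.3 and 61.0 RPKM. Cdkn1c was at 21.3, 20.0 and 25.7, then 41.6, 215 and 29.0, then 16.6, 31.4 and 64.0, then 27.7 and 55.1. Peg3 was at 34.2, 63.6 and 48.4, then 43.3, 43.2 and 60.2, then 20.5, 21.2 and 52.8, then 29.9 and 13.4. In these 3 genes every group overlapped DMSO then DMSO except for Cdkn1c after GSK343, where all 5 libraries with GSK343 after replating lay above it, and for Peg3 in GSK343 then GSK343, which lay below it. Peg10 was at 49.1, 11.3 and 8.71, then 15.5, 8.57 and 17.2, then 74.5, 49.7 and 21.2, then 28.5 and 76.3 RPKM. Igf2r was at 48.5, 108 and 71.4, then 77.7, 65.4 and 70.3, then 43.8, 33.1 and 46.5, then 62.4 and 17.5. Igf2r in GSK343 then DMSO lay below all 3 libraries of DMSO then DMSO. Mest was at 13.4, 23.3 and 2.86, then 14.7, 6.57 and 5.91, then 22, 17.0 and 9.87, then 15.3 and 16.9 RPKM. Nnat was at 29.9, 11.8 and 33.1, then 7.96, 4.75 and 34.8, then 11.9, 11.2 and 16.1, then 9.25 and 12.3. Kcnq1ot1 was at 3.92, 2.84 and 1.09, then 1.34, 0.361 and 1.73, then 5.87, 3.84 and 2.41, then 2.19 and 7.54. These 3 genes had overlapping groups for GSK343 before replating only against DMSO then DMSO.

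**Figure D4:**
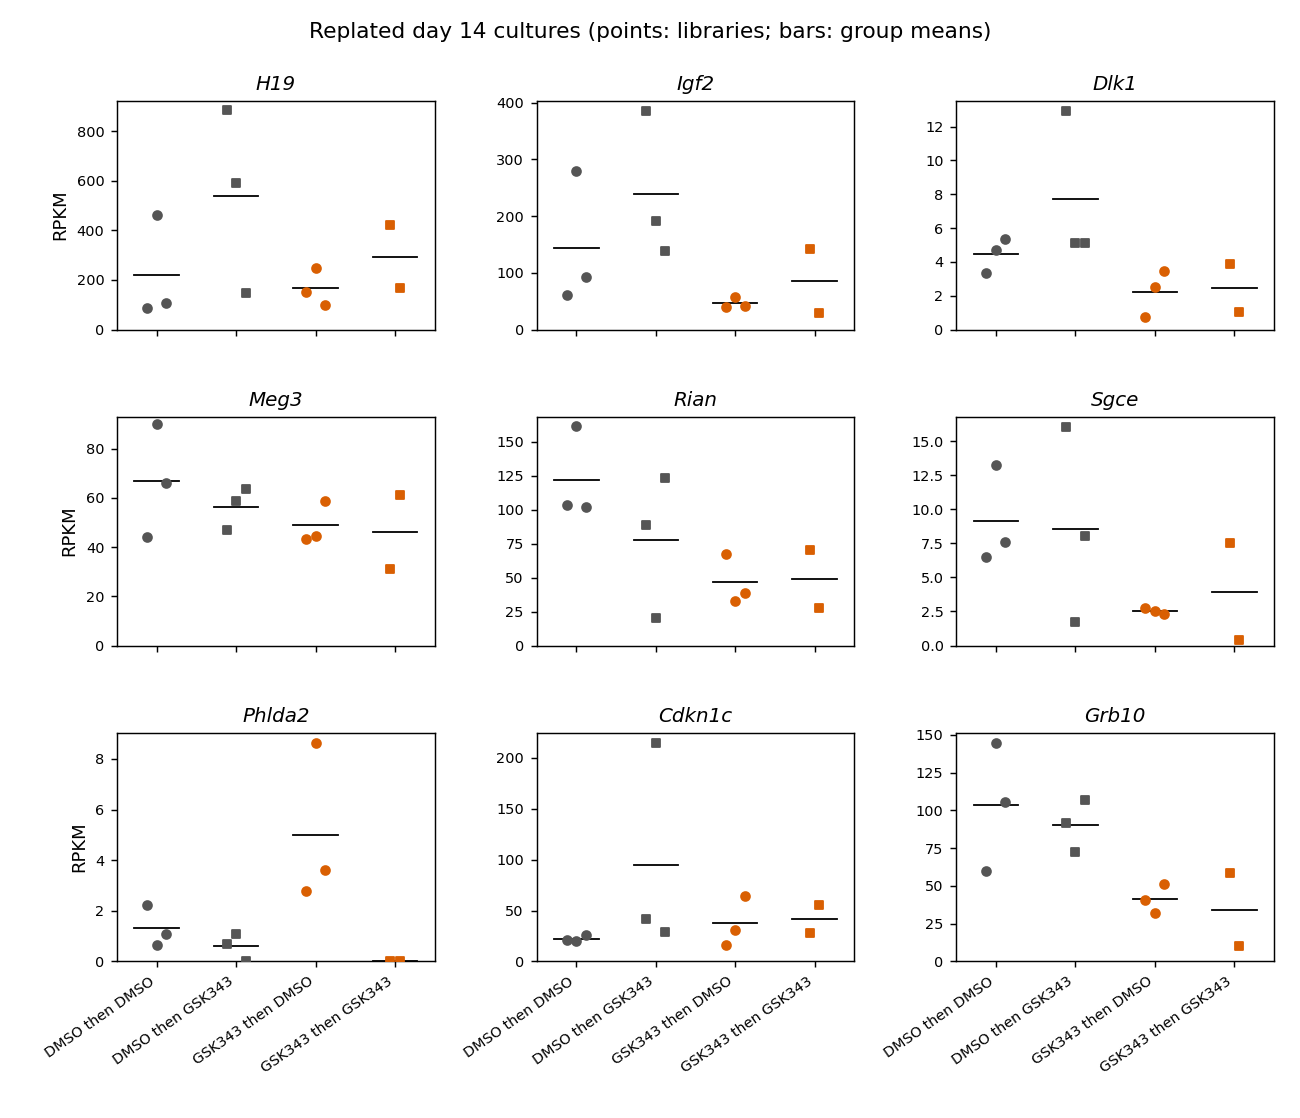
RPKM (y axis, linear, from 0) of 9 imprinted genes in the 4 groups of replated cultures at day 14 (x axis); points are libraries, bars are group means. Sgce in GSK343 then DMSO (2.32 to 2.73) lies below all libraries of DMSO then DMSO (6.47 to 13.3), and Cdkn1c has 1 library of DMSO then GSK343 at 215.

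Library 2 of DMSO then GSK343 stood apart from the others of its group, with Sgce at 1.69 RPKM against 16 and 8.06. The 2 libraries of GSK343 then GSK343 differed, with Sgce at 7.53 in library 1 and 0.388 in library 2. Over genes, library 1 correlated best with DMSO then DMSO library 1 (0.951) and library 2 with GSK343 then DMSO library 2 (0.943). With 2 libraries it cannot be told which is the unlike one. DMSO then DMSO library 1 was itself less like its group, at 0.911 at most, where libraries 2 and 3 correlated at 0.949. The main comparisons with DMSO then DMSO include that library. A further fit left out library 2 of both groups. Without both libraries, a choice made after seeing the data, 4 members were lower in GSK343 then DMSO than in DMSO then DMSO (15.4% of all genes were then called): Rian, Sgce, Cd81 and Grb10. Without library 1 of GSK343 then GSK343, 2 members were higher and 6 lower than in DMSO then GSK343 (14.8% of all genes were called), a comparison in which the group GSK343 then GSK343 is library 2 alone. Pluripotency genes summed to 112 to 992 RPKM in DMSO then DMSO, 110.0 to 148 in DMSO then GSK343, 984 to 1729 in GSK343 then DMSO and 795 to 1878 in GSK343 then GSK343, and mesenchymal genes to 5256 to 11420, 8167 to 15490, 3038 to 8793 and 2548 to 5521. The pluripotency gene Dppa3 was at 0 in every library of DMSO then GSK343. The part of these lists in the members' values was not tested.

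**Figure D5:**
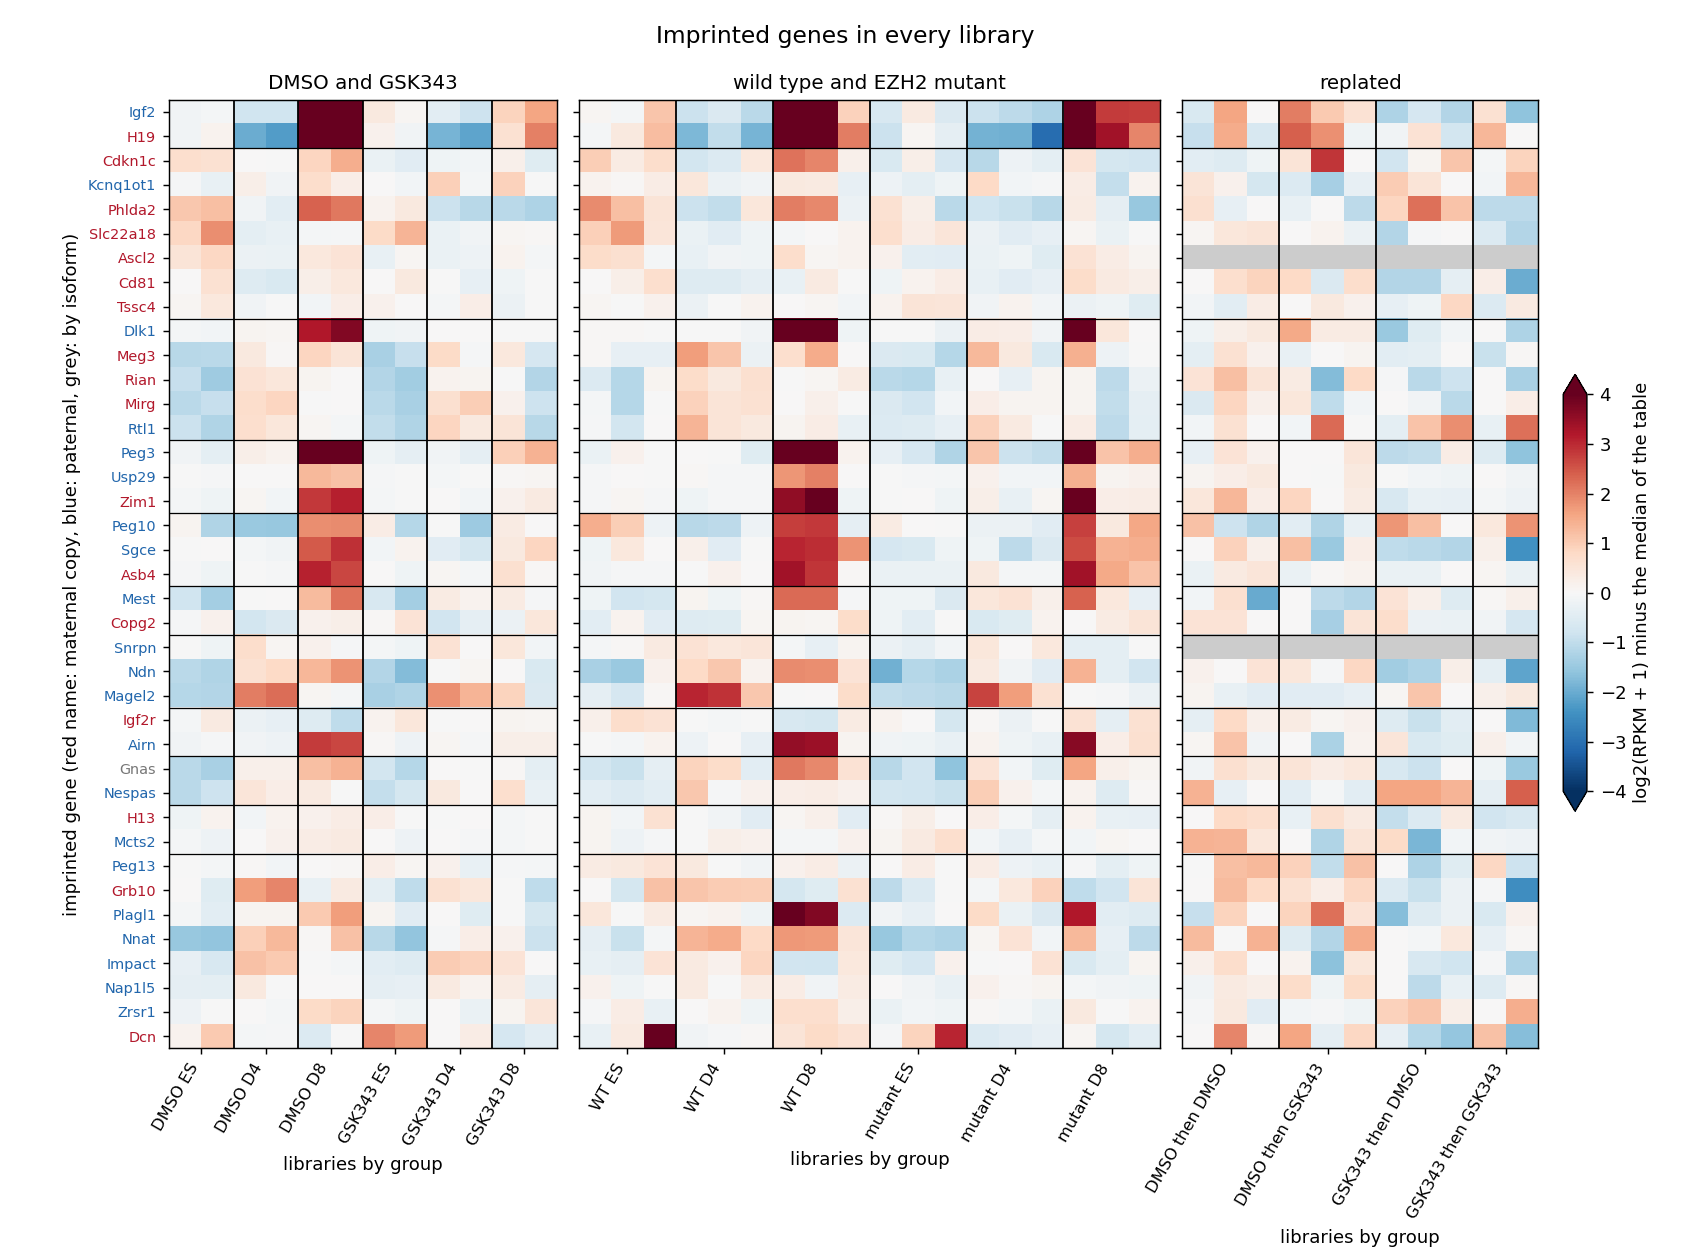
Heat map of log2(RPKM + 1) minus the gene's median in the same table (colour), for each member (y axis, name coloured by parental copy) in every library by group (x axis), with 1 panel per experiment. In the DMSO and GSK343 panel the 2 DMSO libraries of day 8 stand out as high for Igf2, H19, Dlk1, Peg3 and Zim1, and in the wild-type and mutant panel wild-type library 3 and mutant library 1 of day 8 stand apart from the other libraries of their groups.

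Of a list of 20 genes that set, keep or remove methylation at imprints, 8 were higher and 0 lower with GSK343 at day 8, where 15.6% of all genes were higher and 16% lower, and the median of the list was 0.42. Dnmt3l, the cofactor of the de novo DNA methyltransferases, was at a mean of 70.8 RPKM against 1.32 in DMSO, a difference of 4.94 (limma, adjusted p = 5.68e-08). Zfp57 was at 37.8 against 11.8 RPKM, a difference of 1.6 (limma, adjusted p = 0.000124), and the DNA demethylase gene Tet1 and the ZFP57 partner Trim28 were higher by 2.42 and 0.83. In DMSO from day 4 to day 8, 2 of the 20 rose and 7 fell, with Dnmt3b at 833 RPKM at day 4 and 33.1 at day 8. Between genotypes at day 8, Dnmt3l was higher in the mutant by 3.79 (limma, adjusted p = 0.016), and it was the 1 gene of the list called. Of 27 other imprinted genes tested, 6 were higher and 6 lower with GSK343 at day 8, where 15.6% of all genes were higher and 16% lower, and their median was 0.18. Dio3, the deiodinase gene at the far end of the Dlk1 cluster, and Peg12 were lower by 1.31 and 1.75, and Cobl, an actin nucleator gene beside Grb10, and Jade1 were higher by 2.77 and 1.81.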

How the data were processed

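The members and gene lists were chosen with earlier results of these data known. The 3 RNA-seq tables hold the authors' RPKM per gene and library, per the file headers; STAR 2.5.3, featureCounts 1.6.1, edgeR, HOMER 4.10.3 and mm10 are named per the submitters' processing notes. No source used here names the annotation or says whether counting was stranded. Low RPKM are whole multiples of a step per library, so reads were recovered, and 100% of values lay within 0.02 of a whole read. For wild type and mutant, the deposited RPKM hold another factor for each library, from 0.811 to 2.23 as read from the values. The third GSK343 then GSK343 library is not analysed here, and 41 of 42 RNA-seq samples were used.

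Groups came from the labels and column names. Within each table limma 3.58.1 (R 4.3.3; lmFit, eBayes with trend) was run on log2(RPKM + 1) for genes at 0.5 RPKM or more in a number of libraries equal to the smallest group size or above, which left 14016 of 14607 genes (DMSO and GSK343), 14180 of 14772 (wild type and mutant) and 14367 of 14833 (replated). P-values were adjusted with Benjamini-Hochberg over all genes tested in a comparison, at 0.05, and the procedure was tested on simulated data. The authors' deposited tables also give a log2 fold change and adjusted p-value for each of their comparisons, which were only counted, and a PRC2 target call. Peak positions are the authors' deposited coordinates, for which the labels list Bowtie2 2.3.4.3 and HOMER 4.10.3; 4 lists were merged over wild-type stages by the authors, and positions were compared with RefSeq starts and gene spans. Sequences and motif counts were read from the RefSeq promoter table (Python 3.11.15, pandas 2.3.3).

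Every member was accounted for, with values in every library for 13 genes of the clusters (H19, Igf2, Dlk1, Meg3, Cdkn1c, Kcnq1ot1, Igf2r, Peg3, Peg10, Mest, Snrpn, Nnat and Grb10) and for up to 6 called members with the smallest p per comparison; of each list at most 4 genes were named. Library numbers were taken to pair samples where every same-numbered pair deviated together with a correlation above 0.1 over at least 3 pairs: from 0.290 to 0.806 for genotypes at day 4, 0.151 to 0.292 and 0.222 to 0.425 for the 2 wild-type steps and 0.339 to 0.736 and 0.460 to 0.641 for the 2 mutant steps. The pairing comes from the numbers in the labels and these correlations. In the first experiment same-numbered libraries correlated at 0.666, 0.625 and 0.424 between treatments in ES cells, at day 4 and at day 8. In its steps they correlated at 0.358 to 0.489. With only 2 pairs they did not meet the rule, so the main tests of that experiment are unpaired. Alternatives were another pseudocount, no filter, median-ratio scaling, the groups of a comparison alone, the replicate block, voom on recovered reads and each library left out.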

Additional observations from a re-analysis of the deposited data

Results flagged for a closer look

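The effect of GSK343 at day 8 differed from its effect at day 4 for 12 members, by a test of that difference over all genes (limma, Benjamini-Hochberg adjusted p under 0.05). The values are the day 8 effect minus the day 4 effect on the scale of log2(RPKM + 1), and all are toward lower values with GSK343 at day 8. The growth factor and noncoding RNA pair gave -4.73 for Igf2 and -3.90 for H19. In the Kcnq1 cluster Phlda2 gave -2.67, and in the Dlk1-Dio3 cluster Dlk1 gave -3.38. The Peg3 cluster gave -2.84 for Peg3, -1.12 for Usp29 and -2.69 for Zim1, and the Peg10 cluster -1.61 for Sgce and -2.57 for Asb4. Mest gave -1.81, Airn -2.67 and Gnas -1.28. When each day 4 and day 8 library was left out in turn, Mest was called in 2 of 8 fits and the other 11 in all 8. The test of day 4 against ES cells called 0 members by limma.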

How the results depend on the processing

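Counts of called members are given here where another setting moved them by more than 1.5 times, as the count under that setting. Where such a count was 0, the share of all genes called was not counted. With only the groups of a comparison in the fit, the count for wild type was 1 from ES cells to day 4 (1.53% of all genes). From day 4 to day 8 it was 3 for wild type (6.88%), 3 for the mutant (4.8%) and 0 for GSK343. It was 1 for GSK343 against DMSO at day 4 (1.03%) and 2 for GSK343 then DMSO against DMSO then DMSO (6.93%). With the replicate block the counts were 10 (16.1%) and 22 (34.6%) for the wild-type steps and 9 (12.8%) and 11 (22.8%) for the mutant steps. The block gave 8 (5.28%) for GSK343 from day 4 to day 8, where the first experiment has only 2 numbers to pair. The block changed no other count by that much. With voom on recovered reads, wild type from day 4 to day 8 gave 7 (15.4% of all genes). Without the second libraries of the wild-type and mutant experiment, chosen after seeing the data for their Rn45s share, 0 members were called in each of the 4 steps, and without the second libraries of DMSO then GSK343 and GSK343 then GSK343, GSK343 then DMSO against DMSO then DMSO gave 4.

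With each library left out in turn, counts ran from 0 to 7 for mutant against wild type at day 8, 2 to 7 and 3 to 20 for the wild-type steps, 1 to 2 and 2 to 5 for the mutant steps, 8 to 15 and 0 to 11 for the GSK343 steps, and 0 to 8 for GSK343 then GSK343 against DMSO then GSK343. For GSK343 against DMSO at day 8 the range was 15 to 22. For wild type from day 4 to day 8 the share of all genes called moved as well, from 5.84% to 31.1%, so such ranges do not describe the members alone. That share was not counted for GSK343 against DMSO at day 8, where each such fit leaves 1 library in a group. No member reversed its sign under any setting in a comparison where it was called. Signs of members that were not called were not followed. Calls of named members were kept in 121 of 122 cases with median-ratio scaling, 122 of 122 with no filter or with the block, 120 with a pseudocount of 0.1, 106 with voom, 97 with only the groups compared, and in 420 of 590 cases with a library left out. The count of members near an H3K27me3 peak was 19 to 24 over the other peak settings. Reads per library were 2.27 to 8.34 M (mega) in the replated cultures, and no setting tested the effect of depth.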
